A study of Mus musculus with 89 samples.

Results

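The genes described here encode the MLL and SET1 methyltransferases that methylate lysine 4 of histone H3 (H3K4), and the core subunits that these enzymes share. They are the 10 rows of the deposited RNA-seq count table, of 26276 with a gene symbol, named Kmt2a, Kmt2b, Kmt2c, Kmt2d, Setd1a and Setd1b (6 enzymes) and Wdr5, Ash2l, Rbbp5 and Dpy30 (4 core subunits). All 10 were in the table and passed the filter on low counts. The cells were V6.5 mouse embryonic stem cells in which the gene H2afz, encoding the histone variant H2A.Z.1, carries an FKBP-V tag. They were grown in naive-state medium, that is with LIF and inhibitors of MEK and GSK3. Of the 6 RNA libraries, 3 are labelled dTAG, after the small molecule that sends an FKBP-V-tagged protein for degradation, and 3 are labelled Control. Both groups carry the tag. How long the cells were treated, how many clones were used and whether the RNA libraries represent separate cultures is not given in the labels. The p-values below therefore set a difference between groups against the spread among the libraries of each fit, which may be technical. The series holds 89 samples, and the other 83, from chromatin, nascent RNA and accessibility assays, are not analysed here.

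Methylation of H3K4 marks promoters and enhancers that are active or held ready. In mammals 6 related enzymes place it. SETD1A and SETD1B, in the SET1 complexes, account for much of the trimethylation at active promoters. MLL1 and MLL2, encoded by Kmt2a and Kmt2b, act at developmental genes, and in mouse embryonic stem cells Kmt2b serves promoters that also carry Polycomb marks. MLL3 and MLL4, encoded by Kmt2c and Kmt2d, monomethylate H3K4 at enhancers. Each enzyme is weak alone and works on a scaffold of WDR5, RBBP5, ASH2L and DPY30. H2A.Z and H3K4 trimethylation are found together at active and Polycomb-marked promoters of embryonic stem cells. The comparison asks whether the RNA of these genes differs when H2A.Z.1 is targeted for degradation.

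The dTAG libraries were not alike. dTAG replicate 1 held 12907095 counts in named genes, dTAG replicates 2 and 3 held 2131648 and 1812405, and the control libraries held 14091745 to 15652795. Of 1462 odorant and vomeronasal receptor genes, whose known site of use is the sensory epithelium, 23.5%, 71.5% and 97.0% had a count in dTAG replicates 1, 2 and 3, and 10.9% to 18.2% in the controls. Mitochondrial ribosomal RNA took 6.94%, 4.94% and 0.165% of the counts in dTAG replicates 1, 2 and 3, and 6.84% to 7.13% in the controls. The 10 embryonic stem cell markers, among them Pou5f1, Nanog and Esrrb, were above 1 CPM (counts per 1000000 counts in named genes) in every library, and summed to 2857, 1710 and 526 CPM in dTAG replicates 1, 2 and 3, against 2635 to 2773 CPM in the controls. One of the 10, Utf1, ran the other way, at 17.6, 22.5 and 33.7 CPM in the dTAG libraries against 16.2 to 19.0 CPM in the controls. The 10 feeder fibroblast markers summed to 50.05, 171 and 532 CPM in the dTAG libraries, with 4 of them at 0 in dTAG replicate 1 and none at 0 in dTAG replicates 2 and 3, against 36.1 to 48.2 CPM in the controls, with 3 or 4 at 0. The 14 lineage markers summed to 50.8, 254 and 648 CPM in the dTAG libraries and 40.8 to 45.1 CPM in the controls. No library was a copy of another, since each pair differed by a chi-square of at least 9.49 per gene. The part that these differences between libraries play in the values of the 10 genes was not tested. In bulk RNA, fewer cells of a type and less RNA per cell cannot be told apart.

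The 10 genes are spread over 8 chromosomes of the mouse genome (RefSeq, GRCm38.p6). Setd1b (chr5:123142040-123168630) and Kmt2c (chr5:25271795-25498855) lie on chromosome 5, and Kmt2b (chr7:30568855-30589056) and Setd1a (chr7:127777389-127800122) on chromosome 7. Kmt2a lies at chr9:44803355-44881352, Kmt2d at chr15:98831669-98874077 and Wdr5 at chr2:27515147-27536535. Ash2l lies at chr8:25816000-25847694, Rbbp5 at chr1:132477348-132505665 and Dpy30 at chr17:74299474-74323944. Annotated genes overlap the spans of Kmt2a (1), Kmt2b (1) and Kmt2c (2), none of them a row of the count table, and whether counting used the strand is not given. Wdr5 has a close relative, Wdr5b, at 5.17 CPM in the controls (mean), and reads shared between them cannot be told apart.

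The promoters differ widely in CpG content, the feature that CXXC proteins of these complexes read. Promoter sequences were at hand for 7 of the 10 genes, not for Kmt2b, Setd1b and Ash2l. In the 250 bases before the start, Kmt2c had 48 CpG, Kmt2a 29, Kmt2d 26, Setd1a 25, Wdr5 12 and Rbbp5 10, and the 4 starts of Dpy30 had 1 to 34. The median over 21262 promoter windows of protein-coding genes was 10, and 99.8% of them had fewer CpG than Kmt2c and 49.9% fewer than Rbbp5. These genes stand for the ends of the range among those with 1 listed start, and 100 bases just before each gene's outermost start are shown 5′ to 3′, with CpG in capitals (21 in Kmt2c at chr5:25498856-25498955, minus strand; 5 in Rbbp5 at chr1:132477248-132477347, plus strand; RefSeq, GRCm38.p6).
Kmt2c: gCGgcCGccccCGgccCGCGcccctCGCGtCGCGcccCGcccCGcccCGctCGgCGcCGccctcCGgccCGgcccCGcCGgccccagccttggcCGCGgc
Rbbp5: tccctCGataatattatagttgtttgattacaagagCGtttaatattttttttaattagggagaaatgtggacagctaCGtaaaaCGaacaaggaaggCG
Whether CpG content before the start goes with RNA level was not tested.

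Of the 10 genes, Setd1b had the highest ratio to the controls in dTAG replicates 2 and 3. Setd1b stood at 19.8, 67.1 and 195 CPM in dTAG replicates 1, 2 and 3, against 17.97, 15.5 and 16.3 CPM in control replicates 1, 2 and 3. All 3 dTAG libraries were above all 3 controls, as for 23.9% of all tested genes. The margin was smallest in replicate 1, and replicate 3 was 11.8 times the control mean. In dTAG replicate 1 the exact Poisson 95% interval of 17.4 to 22.3 CPM, for counting error only, covers control replicate 1. Over 6 libraries its log2 fold change was 1.34 (SE 0.47, 95% interval 0.26 to 2.41), with an unadjusted p = 0.0207 and an adjusted p = 0.137 (edgeR quasi-likelihood test, Benjamini-Hochberg over all 18116 genes tested), so it did not pass. Its paralogue Setd1a, which mouse embryonic stem cells need to proliferate, stood at 108, 108 and 89.9 CPM in the dTAG libraries, against 123, 107 and 107 CPM in the controls. dTAG replicates 1 and 2 were inside the control range and replicate 3 was below it. The log2 fold change was -0.73 (SE 0.58, edgeR adjusted p = 0.446), and -0.14 with library totals alone.

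A ratio of 2 genes within a library needs no scaling between libraries. The ratio of Setd1b to Setd1a counts was 0.182, 0.619 and 2.17 in dTAG replicates 1, 2 and 3, against 0.148 ± 0.00370 in the controls (SD, n = 3). Setd1b thus had fewer counts than Setd1a in dTAG replicates 1 and 2 and in every control, and more in dTAG replicate 3. These are ratios of counts, which depend on transcript length, and not of molecules.

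**Figure D1:**
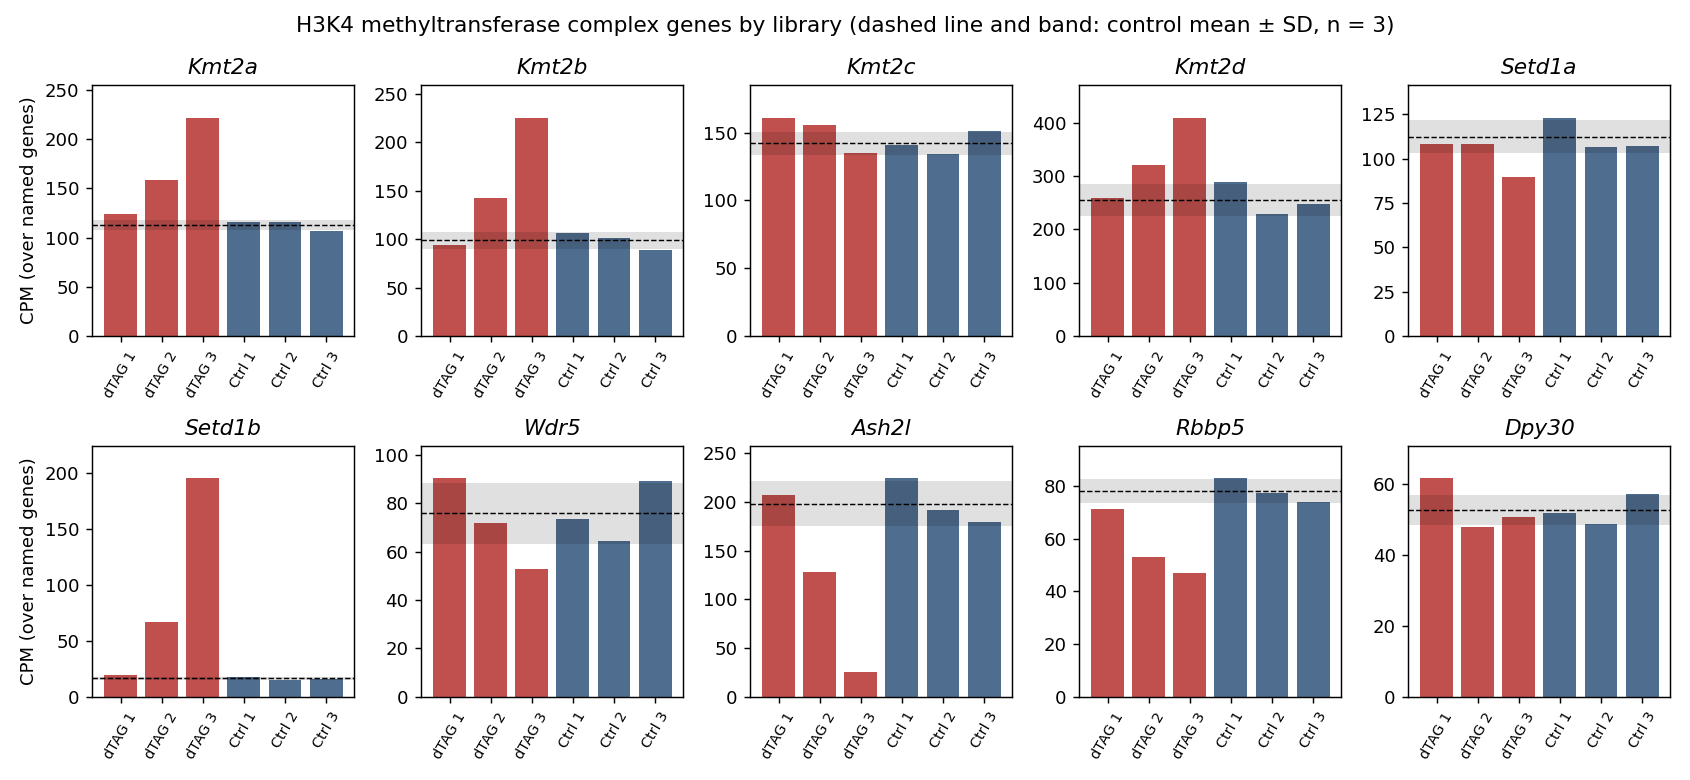
Counts per 1000000 counts in named genes (CPM) of each of the 10 genes in dTAG replicates 1 to 3 (red) and control replicates 1 to 3 (blue), with the control mean as a dashed line and its SD (n = 3) as a grey band. Setd1b reached 195 CPM in dTAG replicate 3, while Ash2l stood at 25.4 CPM there.

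Kmt2a and Kmt2b, the enzymes that read unmethylated CpG DNA through a CXXC domain, were high in dTAG replicates 2 and 3. Kmt2a stood at 124, 159 and 222 CPM in the dTAG libraries, against 116, 116 and 107 CPM in the controls. Kmt2b stood at 93.8, 142 and 225 CPM in the dTAG libraries, against 106, 101 and 88.6 CPM in the controls. For Kmt2a the groups did not overlap, while for Kmt2b dTAG replicate 1 lay within the controls. All dTAG libraries were above all controls for 23.9% of all tested genes. The TMM scale of the fit multiplies each library total by a factor meant to allow for its make-up. This factor was 0.742 to 0.805 in the controls and 0.789, 1.23 and 2.31 in dTAG replicates 1, 2 and 3. Which scale lies nearer to the RNA levels was not tested. On the TMM scale the log2 fold changes of both genes were below 0, at -0.21 for Kmt2a (SE 0.51, edgeR adjusted p = 0.759) and -0.22 for Kmt2b (SE 0.47, edgeR adjusted p = 0.733). With library totals alone they were above 0, at 0.57 and 0.64, so neither gene has a direction over the 6 libraries that holds across scalings.

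The enhancer enzymes Kmt2c and Kmt2d did not have the same order of values across the dTAG libraries. Kmt2d, the more counted of the pair in all 6 libraries, stood at 260, 320 and 409 CPM in the dTAG libraries, against 288, 229 and 249 CPM in the controls. Kmt2c stood at 161, 155 and 135 CPM in the dTAG libraries, against 141, 134 and 151 CPM in the controls, so dTAG replicate 3 was inside the control range and the other two were above it. Their log2 fold changes were -0.38 for Kmt2d (SE 0.67, edgeR adjusted p = 0.678) and -0.52 for Kmt2c (SE 0.62, edgeR adjusted p = 0.552), and both were above 0 with library totals alone, at 0.37 and 0.081. The count ratio of Kmt2d to Kmt2c was 1.61, 2.06 and 3.04 in dTAG replicates 1, 2 and 3, against 1.65 to 2.04 in the controls.

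Among the shared core subunits Ash2l differed most between the dTAG libraries. Ash2l, whose product with RBBP5 stimulates the catalytic SET domain, stood at 207, 128 and 25.4 CPM in the dTAG libraries, against 224, 192 and 179 CPM in the controls. It was inside the control range in dTAG replicate 1 and below it in the other two. The 46 counts behind the value in dTAG replicate 3 gave an exact Poisson 95% interval of 18.6 to 33.9 CPM, which covers counting error only and lies below every control. The log2 fold change was -1.04, with an SE of 0.98 (95% interval -3.30 to 1.23, edgeR adjusted p = 0.485).

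Rbbp5, the partner of ASH2L, was the only core subunit whose groups did not overlap. It stood at 71.0, 53.0 and 46.9 CPM in the dTAG libraries, against 82.8, 77.3 and 73.8 CPM in the controls. dTAG replicate 1 was nearest to the controls. The log2 fold change was -0.99 (SE 0.58, edgeR adjusted p = 0.347), and -0.45 with library totals alone.

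Wdr5, the scaffold that binds the enzymes, and Dpy30, the small subunit that binds ASH2L, overlapped with the controls. Wdr5 stood at 90.3, 71.8 and 53.0 CPM in the dTAG libraries, against 73.6, 64.5 and 89.3 CPM in the controls. Dpy30 stood at 61.6, 47.9 and 50.8 CPM in the dTAG libraries, against 52.0, 48.9 and 57.1 CPM in the controls. dTAG replicate 1 was above the controls for both genes. Below them were dTAG replicate 3 for Wdr5 and dTAG replicate 2 for Dpy30, and the other values lay among the controls. The log2 fold changes were -0.60 for Wdr5 (SE 0.61, edgeR adjusted p = 0.500) and -0.57 for Dpy30 (SE 0.51, edgeR adjusted p = 0.475). With library totals alone they were -0.078 for Wdr5 and 0.023 for Dpy30.

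**Figure D2:**
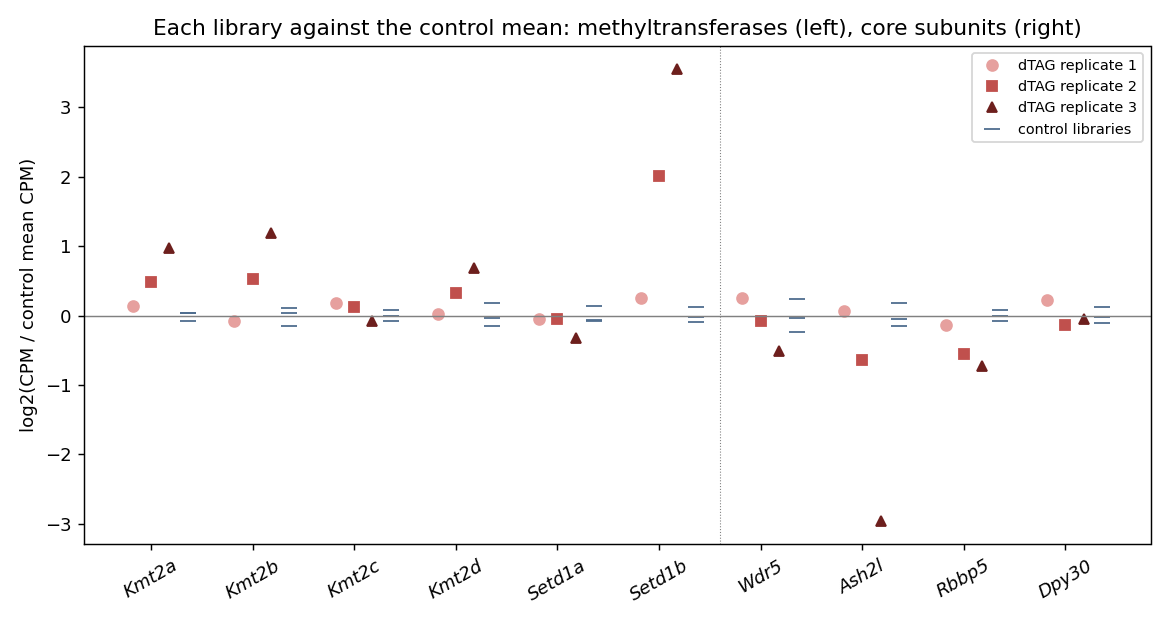
Log2 ratio of CPM in each dTAG library (red symbols) to the control mean, with the control libraries as blue bars, for the 6 methyltransferases (left of the dotted line) and the 4 core subunits (right). The dTAG replicate 1 symbols lie between -0.13 and 0.25, while those of dTAG replicate 3 run from -2.96 for Ash2l to 3.56 for Setd1b.

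Taking the genes by role, in CPM on library totals most enzymes lay above and most core subunits below the controls in dTAG replicates 2 and 3. On the TMM scale, with these 2 dTAG libraries against the controls, 5 of 6 enzymes and all 4 core subunits were below 0. The medians of the enzymes and core subunits were -0.76 and -1.73. In that fit 12851 of all 22093 tested genes were above 0, and their overall median was 0.68. The side on which the enzymes lie thus depends on the scaling. The CPM counts follow. In dTAG replicate 2, 5 of 6 enzymes were above all controls and none below, while 3 of 4 core subunits were below all controls and none above. In dTAG replicate 3 the counts were 4 of 6 enzymes above and 1 below (Setd1a), and again 3 of 4 core subunits below. Of the 8876 genes with a control mean of at least 10 CPM, 38.4% were above and 41.4% below all controls in dTAG replicate 2, and 49.1% above and 42.7% below in dTAG replicate 3, so a place outside the controls was common there. In dTAG replicate 1, 5 of the 10 genes were above all controls (Kmt2a, Kmt2c, Setd1b, Wdr5 and Dpy30) and 1 below (Rbbp5), where the shares over the 8876 genes were 28.8% and 18.3%.

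Summed over the 6 enzymes, dTAG replicates 1, 2 and 3 held 767, 952 and 1276 CPM, against 738 ± 48.0 CPM in the controls (SD, n = 3). The 4 core subunits summed to 430, 300.2 and 176 CPM in the dTAG libraries, against 405 ± 25.4 CPM in the controls (SD, n = 3). The count ratio of enzymes to core subunits was 1.78, 3.17 and 7.25 in dTAG replicates 1, 2 and 3. In the controls it was 1.82 ± 0.0211 (SD, n = 3), with a range of 1.80 to 1.84, so dTAG replicate 1 was just under it and the others far above. Within the set, Ash2l took 17.3%, 10.2% and 1.75% of the counts of the 10 genes in the dTAG libraries, against 16.01% to 18.3% in the controls. Setd1b took 1.65%, 5.36% and 13.4% in the dTAG libraries, against 1.42% to 1.47% in the controls. The order of the dTAG libraries in these shares is also their order in receptor genes with a count (23.5%, 71.5% and 97.0%) and in mitochondrial ribosomal RNA, whose part in the shares was not tested.

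**Figure D3:**
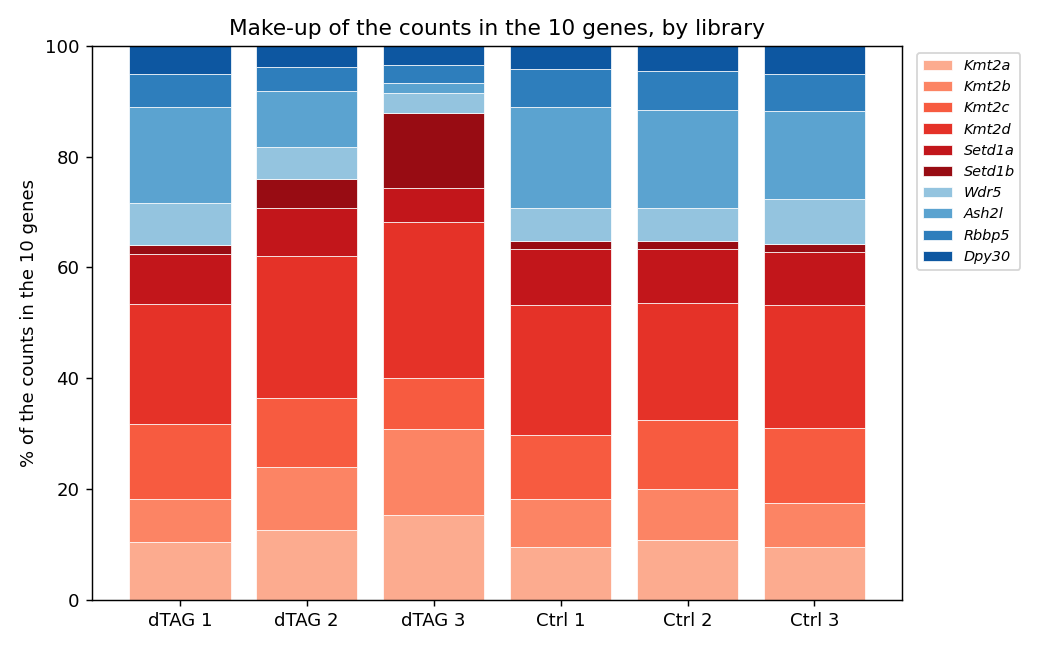
Share (%) of the summed counts of the 10 genes taken by each gene, for dTAG replicates 1 to 3 and control replicates 1 to 3, with enzymes in reds and core subunits in blues. In dTAG replicate 1 Ash2l takes 17.3%, inside the control range of 16.01% to 18.3%, and Setd1b 1.65%, above that of 1.42% to 1.47%. In dTAG replicate 3 Ash2l takes 1.75% and Setd1b 13.4%.

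Over the 6 libraries 0 of the 10 genes passed an adjusted p under 0.05 with edgeR, and 0 of 18116 genes did (0%). At an unadjusted p under 0.05 there was 1 of the 10 (Setd1b) and 4202 of all 18116 genes. DESeq2 and limma-voom also called 0 of the 10. Of all genes DESeq2 called 5196 of 25668, 5180 of them higher, and limma-voom 0 of 18116. Groups did not overlap in CPM for 3 of the 10 genes, Kmt2a and Setd1b higher and Rbbp5 lower, against 27.1% of all tested genes (23.9% higher and 3.22% lower). The median log2 fold change was -0.30 for the enzymes, -0.80 for the core subunits and 0.16 for all tested genes. With library totals alone these medians were 0.47, -0.26 and 1.11. The enzymes' median thus turns sign with the scaling, while both groups stay below the median of all tested genes. That place depends on the genes taken for comparison. In log2, the enzymes' median ratio of CPM to the control mean was 0.079, 0.41 and 0.83 in dTAG replicates 1, 2 and 3. It was 0.15, -0.33 and -0.62 for the core subunits. For the 8876 genes with a control mean of at least 10 CPM it was 0.035, -0.043 and 0.14, below the enzymes in each library. The 95% intervals of 9 of the 10 genes spanned 0, and none lay within 1 log2 unit of 0 on both sides, so each interval held a change of 1 log2 unit in at least one direction.

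Set against the 3 controls alone, dTAG replicate 1 gave narrower intervals. This fit called 16 of 18143 genes (0.0882%; edgeR), of which 0 were among the 10, with 0 of the 10 at an unadjusted p under 0.05. DESeq2 and limma-voom called 0 of the 10 as well. The log2 fold changes ran from -0.22 for Rbbp5 (95% interval -0.56 to 0.13) to 0.17 for Setd1b (-0.47 to 0.81), and all 10 intervals lay within 1 log2 unit of 0. The narrowest intervals belonged to the most counted genes. Kmt2d was at -0.057 (-0.29 to 0.18), Ash2l at -0.016 (-0.27 to 0.24) and Kmt2c at 0.096 (-0.18 to 0.37). Kmt2a was at 0.049 (-0.24 to 0.34), Setd1a at -0.13 (-0.43 to 0.16) and Kmt2b at -0.16 (-0.47 to 0.16). Dpy30 was at 0.14 (-0.25 to 0.53) and Wdr5 at 0.17 (-0.18 to 0.52). Here the dTAG arm is 1 library, assumed to vary like the controls, and a missed threshold does not show that levels were equal.

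**Figure D4:**
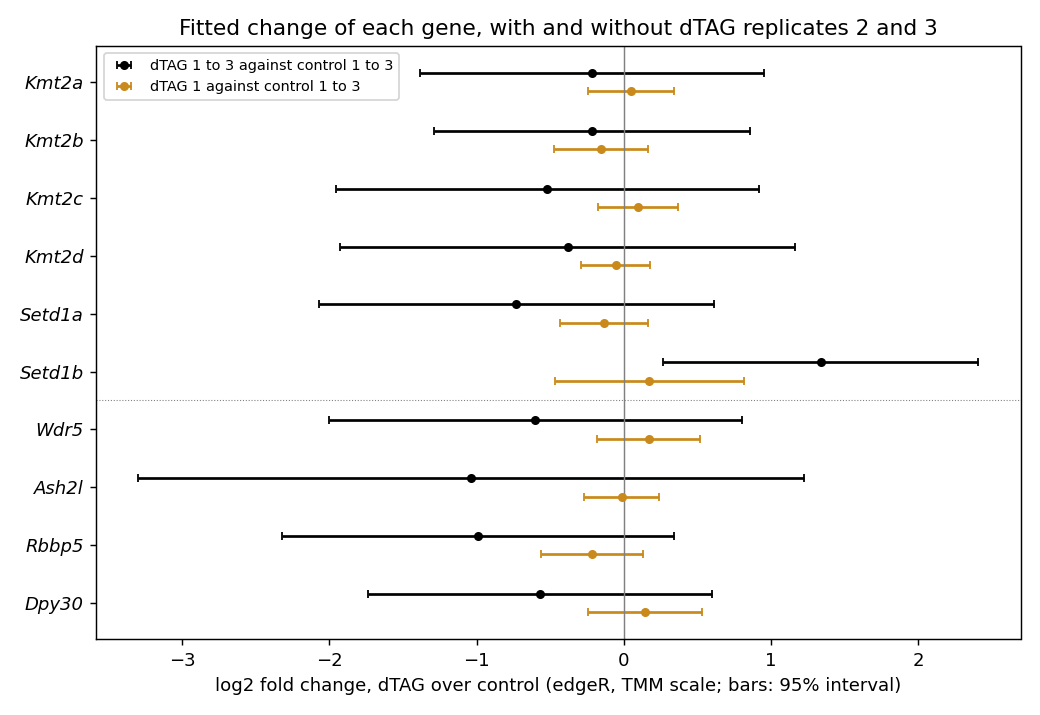
Log2 fold change, dTAG over control, of each gene from edgeR on the TMM scale, with its 95% interval, for all 3 dTAG libraries (black) and for dTAG replicate 1 alone (orange), each against the 3 controls; the dotted line parts enzymes (above) from core subunits. The black interval of Setd1b (0.26 to 2.41) is the only one clear of 0, and its adjusted p was 0.137.

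Without dTAG replicate 1 the same test called 4 of the 10 genes, and 59.8% of all 22093 tested. Setd1b was higher (log2 fold change 1.40, edgeR adjusted p = 0.00553), as were 40% of all tested genes, whose median was 0.68. Rbbp5 (-1.93, edgeR adjusted p = 0.0149), Dpy30 (-1.44, edgeR adjusted p = 0.0235) and Wdr5 (-1.53, edgeR adjusted p = 0.0455) were lower, as were 19.8% of all tested genes. Ash2l was at -2.38 (edgeR adjusted p = 0.0583). The lower calls are on the TMM scale. With library totals alone, a setting added after the data were seen, 1 of the 10 genes was called, Setd1b (log2 fold change 2.98, edgeR adjusted p = 0.000151), beside 58.7% of all genes (55.9% higher and 2.78% lower). Rbbp5 was then at -0.64, Wdr5 at -0.28 and Dpy30 at -0.095, with edgeR adjusted p = 0.13, 0.518 and 0.818. In CPM, dTAG replicates 2 and 3 stood at 0.909 and 0.964 of the control mean for Dpy30, at 0.947 and 0.699 for Wdr5, and at 0.680 and 0.602 for Rbbp5. The calls for Dpy30 and Wdr5 therefore go with CPM values that overlapped those of the controls. These calls rest on the 2 libraries with a count in most receptor genes and with less mitochondrial ribosomal RNA than any control, and the part of either was not tested.

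Other genes of the H3K4 system were taken as lists. None of 14 accessory subunits, 8 H3K4 demethylase genes, 14 H3K4me3 reader genes and 7 other SET-domain genes passed over the 6 libraries (edgeR), with 0, 1, 1 and 1 at an unadjusted p under 0.05. Of all 18116 tested genes, 4202 were under it. limma-voom called 0 in each list. DESeq2 called 1, the demethylase gene Kdm5d (higher), beside 5196 of all 25668 genes, 5180 of them higher. The list medians were -0.71, -0.61, -0.42 and -0.03 on the log2 scale, beside 0.16 for all tested genes. With library totals alone the list medians, in the same order, were -0.086, -0.0099, 0.39 and 0.86, beside 1.11 for all genes. In dTAG replicate 1 against the controls, edgeR, DESeq2 and limma-voom called 0 members of these 4 lists, and 0 had an unadjusted p under 0.05 with edgeR. The medians there were -0.076, 0.031, 0.0039 and -0.12, beside -0.016 for all genes.

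Without dTAG replicate 1, where edgeR on the TMM scale called 40% of all genes higher and 19.8% lower, it called 7 of 14 accessory subunits lower. It called 1 demethylase gene higher and 1 lower of 8, 1 reader higher and 5 lower of 14, and 1 other SET-domain gene higher and 2 lower of 7. With library totals alone, where 55.9% of all genes were called higher and 2.78% lower, none of these 4 lists had a member called lower, and 1, 2, 3 and 3 members were called higher. Cxxc1, which encodes the CpG-binding subunit of SET1 complexes, shows the difference between the scales. It was called lower on the TMM scale, at -0.83, while it stood at 23.9 and 55.2 CPM in dTAG replicates 2 and 3, against 25.9, 22.7 and 24.3 CPM in the controls. In the same libraries 7 of 10 feeder fibroblast markers and 11 of 14 lineage markers were called higher on the TMM scale, and 1 of 10 embryonic stem cell markers (Klf4) lower. With library totals alone these counts were 9, 13 and 0. Over the 6 libraries none of the marker lists had a call with edgeR, with 3 feeder (of 6 that passed the filter), 7 lineage and 0 stem cell markers at an unadjusted p under 0.05. Of all 18116 tested genes, 4202 were under it. limma-voom called 0 of these markers as well. DESeq2 called 5 feeder, 6 lineage and 0 stem cell markers, beside 5196 of all 25668 genes, 5180 of them higher. The part of these marker genes in the values of the 10 genes was not tested.

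Single genes of these lists are given by level and by fitted change, and none passed the edgeR test over 6 libraries. Psip1, which encodes the chromatin tether LEDGF of the MLL1 and MLL2 complexes, stood at 274.5, 212 and 33.7 CPM in dTAG replicates 1, 2 and 3, against 285 ± 18.1 CPM in the controls (SD, n = 3). Hcfc1, a subunit of the SET1 and MLL1/MLL2 complexes, stood at 178, 131 and 106 CPM in the dTAG libraries, against 177 ± 9.22 CPM in the controls (SD, n = 3). Hcfc2, its paralogue and the accessory gene with the highest fitted change, stood at 5.501, 8.91 and 37.0 CPM in the dTAG libraries, against 4.30 ± 1.75 CPM in the controls (SD, n = 3), with an edgeR adjusted p = 0.431.

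Among the enzymes that remove the mark, those with the highest control CPM were lowest in dTAG replicate 3. Kdm5b, which demethylates trimethylated H3K4, stood at 438, 304 and 57.9 CPM in the dTAG libraries, against 409 ± 15.6 CPM in the controls (SD, n = 3). Kdm1a, which removes mono- and dimethyl marks, stood at 190.1, 145 and 59.6 CPM in the dTAG libraries, against 178 ± 14.8 CPM in the controls (SD, n = 3). Kdm5d, a relative of Kdm5b, stood at 2.32, 11.3 and 17.7 CPM in the dTAG libraries, against 0.445 ± 0.332 CPM in the controls (SD, n = 3; log2 fold change 3.45, edgeR adjusted p = 0.102). Its control values of 0.0710 to 0.703 CPM lie near the value of 3 counts, at most 0.213 CPM there, so its fold change rests on a nearly silent row.

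Readers of the mark differed in where dTAG replicate 3 lay. Bptf, a subunit of the NURF remodeller that binds trimethylated H3K4, stood at 343, 305 and 159 CPM in the dTAG libraries, against 324 ± 18.6 CPM in the controls (SD, n = 3). Chd1, a remodeller with H3K4me3-binding chromodomains, stood at 246, 189.5 and 100.4 CPM in the dTAG libraries, against 222 ± 3.69 CPM in the controls (SD, n = 3). Ing5, of a histone acetyltransferase complex, had the lowest fitted change and stood at 52.1, 36.6 and 30.9 CPM in the dTAG libraries, against 50.7 ± 6.66 CPM in the controls (SD, n = 3). Phf2, with the highest, stood at 16.6, 41.3 and 117 CPM in the dTAG libraries, against 12.6 ± 4.67 CPM in the controls (SD, n = 3). In dTAG replicate 1 each of these 4 readers lay within 1 SD of the control mean except Bptf and Chd1, which were above it.

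The other SET-domain genes lie outside the 6 enzymes and their complexes. Kmt2e, a relative of the MLL genes without known H3K4 activity, stood at 53.4, 92.4 and 153 CPM in the dTAG libraries, against 54.9 ± 10.9 CPM in the controls (SD, n = 3). Ash1l, which encodes an H3K36 methyltransferase, stood at 96.2, 83.5 and 92.1 CPM in the dTAG libraries, against 79.1 ± 7.43 CPM in the controls (SD, n = 3). In CPM, both dTAG replicates 2 and 3 were above all controls for Kmt2e, Setd7, Prdm9 and Smyd1 of these 7 genes. Taken 1 library at a time, such a place was common. It held for 38.4% in dTAG replicate 2 and 49.1% in dTAG replicate 3 of the 8876 genes with a control mean of at least 10 CPM. The share of genes above all controls in both libraries was not counted. Prdm9 and Smyd1 were under 10 CPM in every control. Smyd2, a lysine methyltransferase and the lowest by fitted change, stood at 41.4, 39.4 and 34.8 CPM in the dTAG libraries, against 43.5 ± 7.32 CPM in the controls (SD, n = 3). Smyd1, a muscle gene and the highest, stood at 3.02, 9.85 and 33.7 CPM in the dTAG libraries, against 1.67 ± 0.956 CPM in the controls (SD, n = 3).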

How the data were processed

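RNA-seq counts of 3 dTAG and 3 Control libraries were used, grouped by sample titles; table columns were matched by the same titles. The values deposited by the authors are raw gene counts in whole numbers. Build mm10 and the tools featureCounts, STAR 2.7.2b, limma and edgeR are listed in the submitters' processing notes; what each did, the annotation and the strand setting were not given there. Per the labels' protocols, ERCC spike-ins were added and libraries were called stranded and ribo-depleted while an mRNA kit was named. The 903 rows without a symbol (2.33%, 6.67% and 14.6% of counts in dTAG replicates 1, 2 and 3, and 2.20% to 2.37% in the controls) were left out of totals and tests.

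CPM divides a count by the library's total over named genes, times 1000000. A count of 0 allows 3 counts, or 0.232, 1.41 and 1.66 CPM in dTAG replicates 1, 2 and 3 and at most 0.213 CPM in the controls. Tests were edgeR 4.0.16 (R 4.3.3; glmQLFit and glmQLFTest, two-sided, TMM on named-gene totals, filterByExpr with minimum count 10 and total 15, group alone), Benjamini-Hochberg adjusted over all tested genes, with a threshold of 0.05. SEs were taken from the fold change and F, and intervals are 95%. The scripts were tested on simulated data in which all libraries shared a make-up, apart from the genes set to change, and a spread. That test does not cover libraries as unlike as the dTAG libraries here. Alternatives were RLE scaling, library totals, no filter, 1 CPM in every library of a group, DESeq2 1.42.0, limma-voom (limma 3.58.1), a replicate block, leaving out libraries and, added later, library totals without dTAG replicate 1.

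Named outside the 10 genes are, per list, the 2 members with the highest control CPM and those with the lowest and highest fitted change in the 6-library fit (all would be named that passed it; none did). Setd7, Prdm9 and the list members named from the fit without dTAG replicate 1 were chosen after their values were seen, and marker lists are given as sums and counts. The demethylase list includes Rcor1, a partner of KDM1A. Members, lists and tests were chosen with earlier results of these data known. Levels of different genes are not compared, since transcript lengths were not at hand. Symbols matched RefSeq (GRCm38.p6) for 95.5% of named genes and all 10 members.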

Additional observations from a re-analysis of the deposited data

Results flagged for a closer look

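Rows of the table without a gene symbol, which entered no comparison, held 2.33% of the counts in dTAG replicate 1. The share was 6.67% in replicate 2 of that group and 14.6% in its replicate 3. The controls held 2.20% to 2.37%. They stand out because counts outside the named genes exceed the level in every control. dTAG replicates 2 and 3 also hold the high Setd1b and low Ash2l values.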

How the results depend on the processing

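The count of 0 genes called over 6 libraries was also 0 with RLE scaling, library totals, the 1 CPM filter and limma-voom. It was 1398 without a filter, 5196 with DESeq2, 13 with the replicate block and 16 without dTAG replicates 2 and 3; leaving out 1 library gave 0 to 13222, the highest without dTAG replicate 1. The 16 calls of dTAG replicate 1 became 41 without a filter and 5 with limma-voom, and 20 to 60 without 1 control (60 without control replicate 1, 28 without control replicate 2). The cause of these shifts was not tested. Replicate numbers share no source in the labels, and same-numbered libraries had deviations correlated at 0.052, -0.017 and 0.025, with not every library closest to its own number; the block called none of the 10 genes.

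Of the alternative values of the 10 genes over 6 libraries, 132 kept direction and side of the threshold, 5 passed it (all without dTAG replicate 1) and 13 changed sign. With library totals the log2 fold changes were 0.57 for Kmt2a, 0.64 for Kmt2b, 0.081 for Kmt2c, 0.37 for Kmt2d and 0.023 for Dpy30. With library totals and without dTAG replicate 1, a setting chosen after seeing the data, 12970 genes were called, and the values were 0.75 for Kmt2a, 0.90 for Kmt2b, 0.028 for Kmt2c and 0.51 for Kmt2d. Without dTAG replicates 2 and 3 they were 0.049 for Kmt2a, 0.096 for Kmt2c, 0.17 for Wdr5 and 0.14 for Dpy30. For dTAG replicate 1 against the controls, 86 values kept both and 4 changed sign: Kmt2d was 0.023 and Ash2l 0.065 with library totals. Leaving out 1 control gave -0.107 to 0.0069 for Kmt2d and -0.075 to 0.047 for Ash2l, both above 0 without control replicate 1. The lowest count of the 10 genes in any library was 46, for Ash2l in dTAG replicate 3, the library with the lowest total.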
